A study of Mus musculus with 6 samples.

Results

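Interferon response genes are the genes that cells switch on when an interferon binds its receptor. A list of 47 of them was followed in the mouse duodenum, chosen by name for their known induction by interferon, with earlier results of these data known. Of these, 42 had a probe set that the platform annotation pairs with a single gene symbol, out of 22180 genes so measured on the array, and 39 were bright enough to be tested, out of 13174. The mice were 10 weeks old and of the C57Bl/6 background. The 3 wild-type mice carried the vitamin D receptor gene unaltered according to their genotype label, and the 3 VDR-null mice lacked the receptor. The allele, the sex and the diet were not given in the sources used here. RNA of each mouse was read on 1 Affymetrix Mouse Gene 2.0 ST array, whose values are log2 signals, so that a difference of 1 is a 2-fold difference. The mice of a genotype are called replicates 1 to 3, as in the sample titles. The comparison asks how transcription in the duodenum differs when the vitamin D receptor is missing.

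Type I and type III interferons act through receptor-bound Janus kinases and a transcription factor complex that includes IRF9, which binds the interferon-stimulated response element of its target genes. Interferon gamma, made mainly by T and natural killer cells, works through a separate receptor and the gamma-activated site of its target genes. The first route is best known for Isg15 and for the Oas and Ifit families, which block viral RNA and its translation. The second is best known for the guanylate-binding proteins, the immunity-related GTPases and the chemokine Cxcl9. In the intestine the epithelium answers mainly to type III interferon, while the cells of the lamina propria answer to type I.

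The arrays had medians between 5.15 and 5.19. Vdr read 10.72, 10.95 and 11.11 in the wild-type mice and 10.99, 10.86 and 10.85 in the VDR-null mice, so its probe set did not separate the genotypes. Where its probes lie relative to the missing part was not given in the sources used here, and the value checks nothing. All 6 markers of duodenal identity on the list, Pdx1, Gata4, Gata6, Cdx2, Cdx1 and Hnf4a, were bright enough to be tested. In whole tissue, fewer cells of a type and less RNA per cell cannot be told apart.

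As a group the interferon response genes were higher in VDR-null duodenum on average, but by little and not on every array. The size of the shift depended on which mice were included. The mean deviation of the tested members from the 6-array mean was 0.07, -0.07 and -0.31 on wild-type replicates 1 to 3. On VDR-null replicates 1 to 3 it was 0.35, 0.10 and -0.13, so VDR-null replicate 3 lay below wild-type replicates 1 and 2. Of the 39 tested members 33 were higher in VDR-null duodenum and 6 lower, where 44% of all tested genes were higher. The median difference was 0.17 on the log2 scale, against -0.03 over all tested genes. No member passed an adjusted p of 0.05 in limma, and neither did any other gene (0% of those tested). At an unadjusted p under 0.05 there were 4 members higher (Zbp1, Irf9, Ifi35 and Trim12c), where 2.2% of all tested genes were, and 1 lower (Oas2), where 3.03% were. No VDR-null array overlapped the wild-type range in 4 members that were higher (Irf1, Irf9, Ifi35 and Trim12c), against a background of 4.87%, and in 1 that was lower (Oas2), against 6.22%. Trim12c passed the filter on dim genes through its VDR-null arrays alone, so that a higher level there was a condition of its passing. Without it, 32 of 38 were higher, 3 were higher at an unadjusted p under 0.05 and 3 did not overlap upward.

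**Figure D1:**
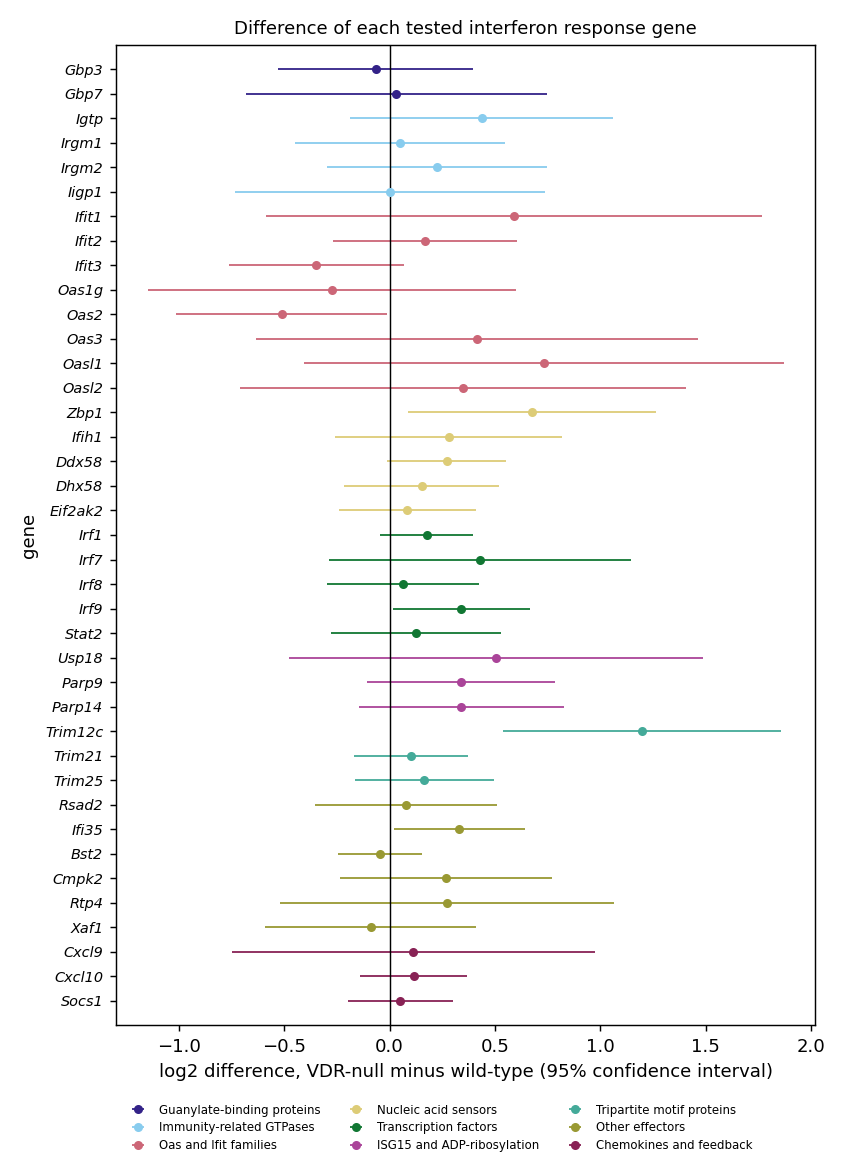
Each point is the log2 difference, VDR-null minus wild-type, of 1 tested member, with the limma 95% confidence interval as a line and the functional class as the colour. Most points lie right of 0, and most intervals, among them those of Ifit1, Oas3, Oasl1, Oasl2 and Usp18, span it widely.

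A pair of mice stood out among the members. VDR-null replicate 1 was the highest of the 6 arrays in 21 of the 39 members (53.8%), where it was the highest in 24.4% of all tested genes. Wild-type replicate 3 was the lowest in 23 members (59.0%), where it was the lowest in 13.8% of all tested genes. Both held in 11 members. In 7 members VDR-null replicate 1 lay at least 2-fold above the mean of the other VDR-null mice, which held for 1.49% of all tested genes. These were Ifit1, Oas3, Oasl1, Oasl2, Irf7, Usp18 and Rtp4. In 10 members wild-type replicate 3 lay at least 0.5 log2 units below the mean of the other wild-type mice, against 2.88% of all tested genes. Without VDR-null replicate 1 the median difference of the members was 0.06 and 29 were higher. Without wild-type replicate 3 it was 0.08, with 27 higher. Without the replicate 1 arrays of both genotypes it was 0.16, with 30 higher. With wild-type replicate 3 and VDR-null replicate 1 both left out, 18 members were higher and 21 lower, the median was -0.01, and 47.7% of all tested genes were higher. That pair was chosen after seeing the data for its low and high members, so a smaller difference was built into the choice and the value is a description only.

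**Figure D2:**
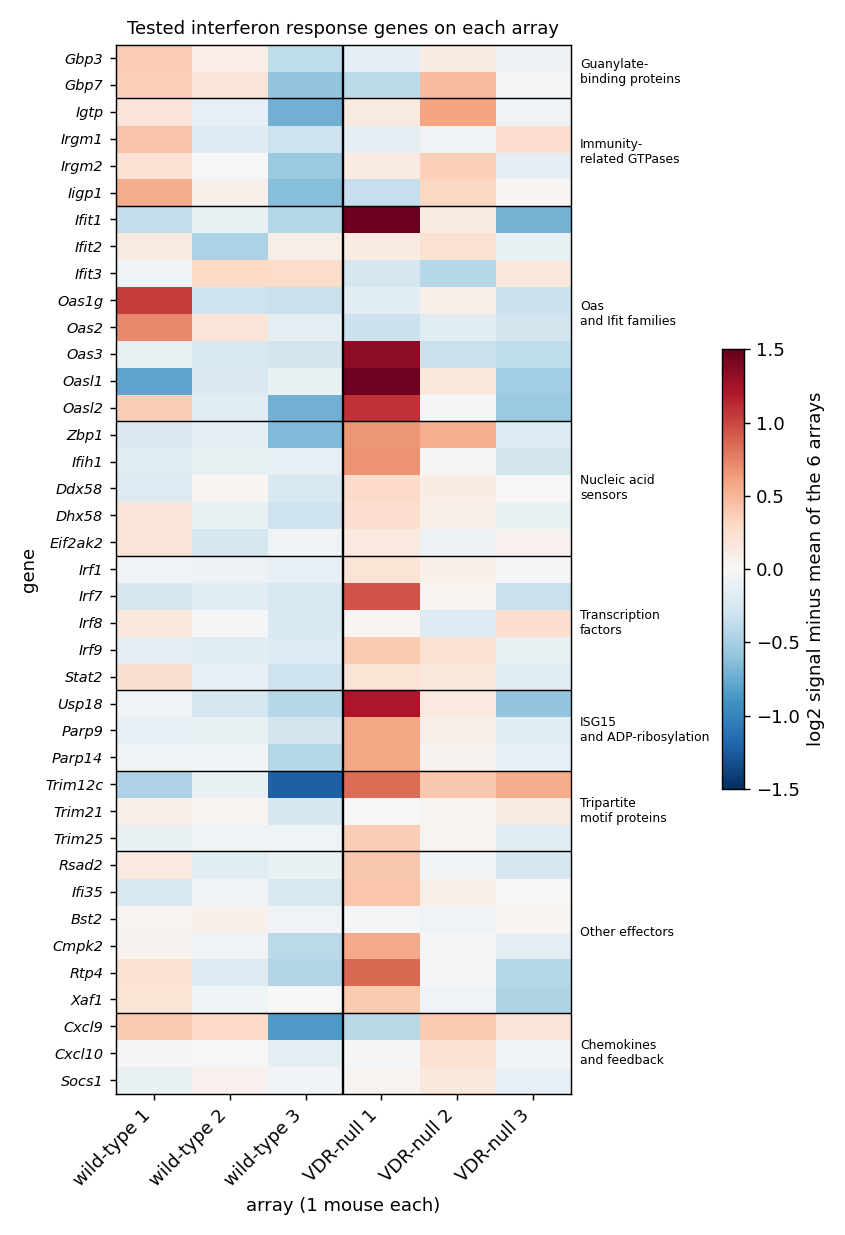
The colour gives the log2 signal of each tested member on each array minus its mean over the 6 arrays, with genes in rows ordered by class and the genotypes split by the vertical line. VDR-null 1 is darkest in Ifit1, Oas3, Oasl1, Oasl2 and Usp18, and wild-type 3 is blue in the GTPases and in Cxcl9.

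**Figure D3:**
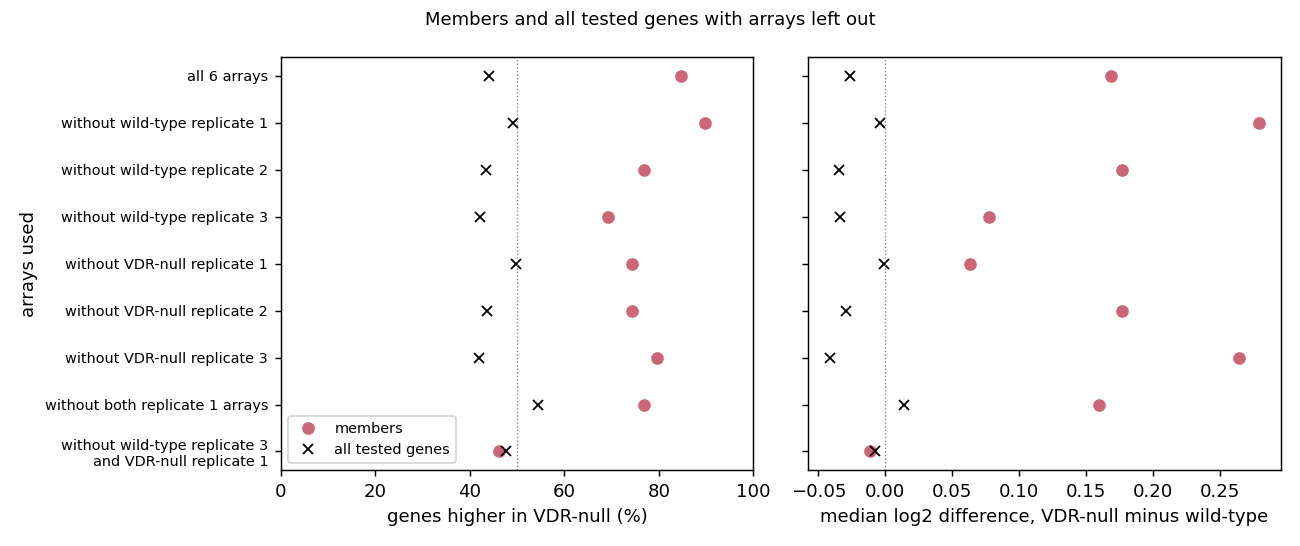
Red circles show the members and crosses all tested genes, with the arrays used in rows: the share of genes higher in VDR-null on the left (percent) and the median log2 difference on the right. The members move onto the crosses in the bottom row, where wild-type replicate 3 and VDR-null replicate 1, chosen after seeing the data, are both left out.

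The promoters of the members were searched for the sites of both interferon routes, since the classes below differ in the route they are known for. The 250 bases before the start were read from the RefSeq promoter table of GRCm38.p6, in which 38 of the 47 members matched by symbol. Gbp6, Iigp1, Oas2, Zbp1, Dhx58, Usp18, Parp9, Parp14 and Rtp4 had no entry there and were not searched. The first motif was the core of the interferon-stimulated response element, GAAA followed by any 2 bases and a second GAAA, and the other the gamma-activated site, TTCNNNGAA. Both strands were searched, and matches were allowed to overlap. The response element core was found in 19 of the 38 members (50%) and in 3.46% of all 27025 genes of the table. The gamma-activated site was found in 9 members (23.7%) and in 8.13% of all genes. Both were found in 5 members, and they overlapped each other in 1 of these, Bst2. The core was found in 3 of 3 guanylate-binding proteins, 3 of 4 immunity-related GTPases and 5 of 8 Oas and Ifit members. It was found in 0 of 3 sensors. The gamma-activated site was found in 1, 2, 2 and 1 members of these classes. The core was thus not confined to the classes known for the first route. These matches are letters in a window and not measured binding. In the sequences below the matches are in capitals, written 5′ to 3′ on the strand of the gene.

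Guanylate-binding proteins are large GTPases that gather on the vacuoles of intracellular microbes and break them open. They showed no common direction by genotype, and in both tested members wild-type replicate 3 was the lowest array. Gbp7 read 7.42, 7.23 and 6.47 in the wild-type mice and 6.66, 7.52 and 7.04 in the VDR-null mice. The genotypes overlapped throughout its range, and the difference was 0.03 ± 0.30 (SE), with a 95% confidence interval of -0.68 to 0.75. Gbp3 read 6.60, 6.31 and 5.84 in the wild-type mice and 6.08, 6.34 and 6.14 in the VDR-null mice, a difference of -0.07 ± 0.20. The difference of Gbp7 was -0.25 when wild-type replicate 3 was left out, 0.24 without VDR-null replicate 1 and -0.19 with VDR-null replicate 2 omitted, and that of Gbp3 was 0.11 without wild-type replicate 1. Gbp6 was dim on all 6 arrays, between 2.96 and 3.22, and Gbp2 lay only on a probe set shared with Gbp2b. Gbp7 and Gbp3 are neighbours on the chromosome, and are shown as the class members with the largest and the smallest difference among those with a match. Gbp7 holds sites of both kinds, while its neighbour holds only response element cores. The Gbp7 window lies at chr3:142530215-142530307 and that of Gbp3 at chr3:142559984-142560029, both on the plus strand.
Gbp7: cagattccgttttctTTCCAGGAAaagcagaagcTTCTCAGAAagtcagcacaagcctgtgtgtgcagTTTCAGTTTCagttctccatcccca
Gbp3: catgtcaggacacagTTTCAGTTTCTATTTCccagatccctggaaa

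The immunity-related GTPases are smaller interferon-induced enzymes that coat such vacuoles, with the Irgm proteins as regulators of the rest. Igtp, also called Irgm3, read 7.83, 7.52 and 6.92 in the wild-type mice and 7.78, 8.24 and 7.58 in the VDR-null mice. Its wild-type replicate 3 lay below all other arrays, VDR-null replicate 2 above them, and the difference was 0.44 ± 0.26 (SE; limma adjusted p = 0.683). It was 0.19 when wild-type replicate 3 was left out. Irgm2, its direct neighbour on the chromosome, read 8.65, 8.43 and 7.87 against 8.55, 8.78 and 8.29. That is a difference of 0.22 ± 0.22, and 0.0012 without wild-type replicate 3. Irgm1 read 6.68, 6.06 and 5.94 in the wild-type mice and 6.12, 6.20 and 6.51 in the VDR-null mice. The genotypes differed by 0.05 ± 0.21, and it read -0.03, -0.09 or -0.06 when wild-type replicate 2, its replicate 3 or VDR-null replicate 3 was omitted. Iigp1, the best studied effector of the family, read 7.77, 7.29 and 6.58 in the wild-type mice and 6.87, 7.52 and 7.25 in the VDR-null mice. The genotype means of Iigp1 were both 7.21, with an interval of -0.74 to 0.74 for the difference. Without wild-type replicate 3 the difference of Iigp1 was -0.32, and without VDR-null replicate 2 it was -0.15. Ifi47 lay only on a probe set shared with an olfactory receptor gene. Across the 4 tested members the median difference was 0.14, and -0.04 without wild-type replicate 3.

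Igtp and Irgm2 are shown together because their upstream windows are alike, with the same sites at the same spacing. The windows are identical at 49 of 51 bases. Irgm1 holds the response element core alone. Igtp is at chr11:58199496-58199546 and Irgm2 at chr11:58214887-58214937 on the plus strand, and Irgm1 is at chr11:48871421-48871465 on the minus strand.
Igtp: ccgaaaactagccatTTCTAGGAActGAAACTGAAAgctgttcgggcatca
Irgm2: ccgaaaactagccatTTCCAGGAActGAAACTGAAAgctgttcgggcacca
Irgm1: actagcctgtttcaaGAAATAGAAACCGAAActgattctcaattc

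The Oas enzymes make the short RNA messenger that turns on RNase L, and the Ifit proteins bind foreign RNA and stop its translation. In 4 of the 8 tested members of these families 1 mouse, VDR-null replicate 1, lay far above the other 5. Ifit1 read 6.97, 7.23 and 6.90 in the wild-type mice and 8.80, 7.46 and 6.62 in the VDR-null mice. VDR-null replicate 1 was 3.39-fold above the mean of the other VDR-null mice, VDR-null replicate 3 was the lowest array of all, and the difference of 0.59 ± 0.50 (SE; limma adjusted p = 0.708) was 0.0041 without VDR-null replicate 1. Oas3 read 6.80, 6.67 and 6.64 against 8.26, 6.57 and 6.53. Here the other VDR-null mice lay below every wild-type mouse, so the difference of 0.42 ± 0.44 became -0.15 without VDR-null replicate 1. Oasl1, an inhibitor of Irf7 translation, read 6.94, 7.51 and 7.63 against 9.19, 7.88 and 7.21, a difference of 0.73 ± 0.48, and 0.18 without VDR-null replicate 1. For its neighbour Oasl2 the values were 9.19, 8.64 and 8.10 against 9.91, 8.80 and 8.26. The difference of Oasl2 was 0.35 ± 0.45, -0.11 without VDR-null replicate 1 and 0.08 without wild-type replicate 3.

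The other 4 members of the families did not share this pattern. Oas2, which lies next to Oas3, was the 1 member with lower arrays in VDR-null throughout, at 7.29, 6.75 and 6.42 in the wild-type mice and 6.24, 6.39 and 6.29 in the VDR-null mice. Its lowest wild-type and highest VDR-null arrays were close, and the difference was -0.51 ± 0.21 (SE; limma adjusted p = 0.683). It was -0.28 when wild-type replicate 1 was left out. Ifit3 read 6.19, 6.54 and 6.51 against 5.98, 5.81 and 6.40, a difference of -0.35 ± 0.17, or -0.22 without VDR-null replicate 2. Ifit2, at 5.35, 4.74 and 5.31 against 5.34, 5.45 and 5.11, lay close to the filter on dim genes and differed by 0.17 ± 0.18, and by -0.03 without wild-type replicate 2. Oas1g was high in 1 wild-type mouse only, with 7.93, 6.57 and 6.54 against 6.70, 6.97 and 6.56, a difference of -0.27 ± 0.37 that turned to 0.18 without that mouse, replicate 1. Oas1g and Oas1a are near-identical neighbours, and Oas1a lay only on a probe set shared with Oas1g, so the signals of this pair are uncertain. Probes of Ifit1 and Ifit3 may likewise read their close copies in the same cluster. The median difference of the 8 tested members was 0.26, and -0.13 without VDR-null replicate 1.

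Ifit1 and Ifit3 are the members of the families with the most positive and the most negative difference among those with a match. Each holds a pair of response element cores, on the strand opposite to the gene, although only Ifit1 was high in VDR-null replicate 1. The windows are chr19:34640770-34640828 and chr19:34583358-34583431, both on the plus strand. No match was found in the windows of Oasl1 and Oasl2.
Ifit1: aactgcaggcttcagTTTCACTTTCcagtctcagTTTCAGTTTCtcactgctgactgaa
Ifit3: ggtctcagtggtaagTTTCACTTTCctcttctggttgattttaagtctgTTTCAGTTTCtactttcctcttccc

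**Figure D4:**
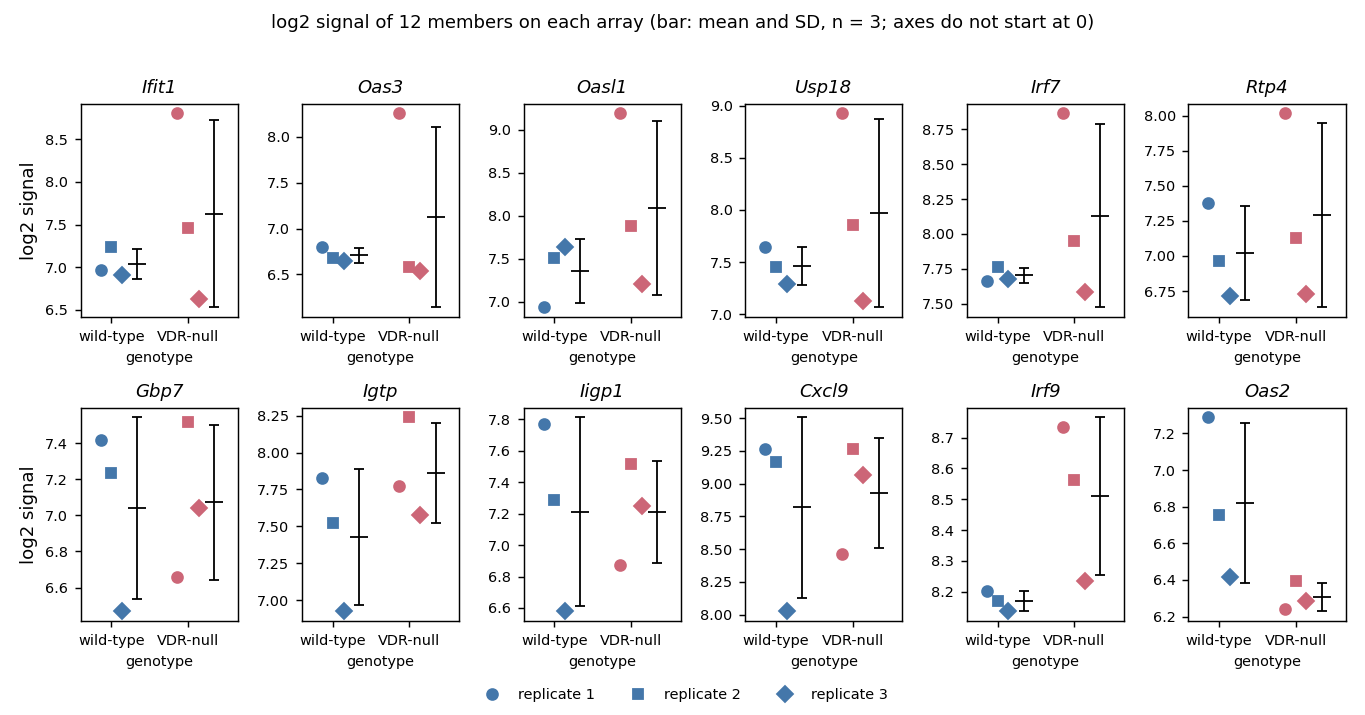
Each panel gives the log2 signal of 1 member, with 1 symbol per mouse, the symbol shape for the replicate number and the black bar for the mean and SD (n = 3); the axes do not start at 0. In the upper row VDR-null replicate 1 lies above the other 5 mice, and in Gbp7, Igtp, Iigp1 and Cxcl9 wild-type replicate 3 is the lowest mouse.

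Sensors of foreign nucleic acid were higher in VDR-null duodenum in 5 of 5 cases, with a median difference of 0.27, or 0.06 without VDR-null replicate 1. Zbp1, which senses Z-form nucleic acid and can start necroptosis, read 7.66, 7.72 and 7.21 in the wild-type mice and 8.52, 8.41 and 7.68 in the VDR-null mice. VDR-null replicates 1 and 2 lay above all wild-type mice and replicate 3 within their range, and the difference was 0.68 ± 0.25 (SE; 1.60-fold; limma adjusted p = 0.683), between 0.52 and 0.94 with any single mouse left out. Ifih1, the long double-stranded RNA sensor MDA5, read 8.33, 8.40 and 8.39 against 9.19, 8.54 and 8.24, a difference of 0.28 ± 0.23 that was 0.01 without VDR-null replicate 1. Ddx58, the RNA sensor RIG-I, read 8.28, 8.52 and 8.25 against 8.77, 8.59 and 8.49. Its difference of 0.27 ± 0.12 stayed between 0.19 and 0.36 with any single mouse left out. Dhx58, the regulator LGP2, read 6.83, 6.54 and 6.34 against 6.91, 6.73 and 6.54 and differed by 0.15 ± 0.15, and by 0.04 without wild-type replicate 3. For Eif2ak2, the kinase PKR that stops translation, the values were 7.62, 7.16 and 7.36 against 7.57, 7.34 and 7.48, a difference of 0.08 ± 0.14 that was -0.03 without wild-type replicate 2. Zbp1 and Dhx58 had no promoter entry and were not searched. Of the 3 sensors searched, Ifih1, Ddx58 and Eif2ak2, only Eif2ak2 held a match, a gamma-activated site at chr17:78882727-78882765 on the minus strand.
Eif2ak2: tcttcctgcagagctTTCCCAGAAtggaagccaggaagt

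Among the transcription factors of the response, 5 of 5 were higher, with a median difference of 0.18, or 0.06 without VDR-null replicate 1. Irf9, the DNA-binding part of the type I complex, read 8.20, 8.17 and 8.14 in the wild-type mice and 8.74, 8.56 and 8.23 in the VDR-null mice. The groups did not overlap but came close, and the difference was 0.34 ± 0.14 (SE; limma adjusted p = 0.683), between 0.23 and 0.48 with any single mouse left out. Irf1, the early factor of the interferon gamma route, was tight in both genotypes, at 8.85, 8.81 and 8.77 against 9.11, 8.97 and 8.88, with a difference of 0.18 ± 0.09 and 0.11 without VDR-null replicate 1. Irf7, which amplifies type I interferon, read 7.66, 7.76 and 7.68 against 8.86, 7.95 and 7.58. Only VDR-null replicate 1 was far from the rest, and the difference of 0.43 ± 0.30 was 0.06 without it. Stat2 read 8.14, 7.78 and 7.59 against 8.10, 8.05 and 7.73, a difference of 0.13 ± 0.17 that was 0.0010 without wild-type replicate 3. Irf8, a factor of macrophages and dendritic cells, read 9.24, 9.06 and 8.85 against 9.12, 8.89 and 9.34 and differed by 0.06 ± 0.15, and by -0.03 with wild-type replicate 3 omitted and -0.05 with VDR-null replicate 3 omitted. Irf1 and Irf8 are the factors with the largest and the smallest difference among those with a match, and both hold gamma-activated sites, at chr11:53769909-53769947 and chr8:120736172-120736228 on the plus strand.
Irf1: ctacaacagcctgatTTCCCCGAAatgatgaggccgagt
Irf8: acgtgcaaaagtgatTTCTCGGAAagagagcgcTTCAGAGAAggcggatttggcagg

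The ubiquitin-like modifier Isg15 was too dim to be tested, and like Ifit1 it was highest on VDR-null replicate 1. It read 4.39, 4.25 and 4.17 in the wild-type mice and 5.24, 4.21 and 4.19 in the VDR-null mice, where VDR-null replicate 1 was the only array above the median of all values, 5.17. Usp18, the protease that removes Isg15 and damps the receptor, read 7.65, 7.46 and 7.29 against 8.93, 7.86 and 7.12. VDR-null replicate 1 was the highest and VDR-null replicate 3 the lowest of the 6, and the difference of 0.51 ± 0.41 (SE) was 0.03 without VDR-null replicate 1. Parp9 and Parp14, partners in ADP-ribosylation that lie beside each other with Dtx3l between them, had similar differences. Parp9 read 6.88, 6.91 and 6.73 against 7.60, 7.09 and 6.86, and Parp14 read 8.12, 8.11 and 7.73 against 8.74, 8.21 and 8.03. Both differed by 0.34, with standard errors of 0.19 and 0.20, and both by 0.13 without VDR-null replicate 1. Parp14 differed by 0.21 without wild-type replicate 3. Dtx3l lay only on a probe set shared with Parp9. The Isg15 promoter, at chr4:156200860-156200911 on the minus strand, is shown as that of the measured member of this class with a match. It holds 3 overlapping response element cores.
Isg15: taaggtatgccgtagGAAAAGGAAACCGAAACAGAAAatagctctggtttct

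Tripartite motif proteins include ubiquitin ligases that restrict viruses or tune the sensors. Trim12c, a mouse relative of the retrovirus restriction factor Trim5, had the largest difference of all members. It read 4.36, 4.71 and 3.60 in wild-type duodenum, all below the median of all values, and 5.66, 5.23 and 5.38 in the VDR-null mice, all just above it. The groups did not overlap, and the difference was 1.20 ± 0.28 (SE; limma adjusted p = 0.683), between 0.89 and 1.44 with any single mouse left out, on signals near that median. Because Trim12c entered the test through its VDR-null arrays alone, a higher level there was a condition of its being tested, and these values are a description only. Trim12c shares other probe sets with Trim5, so the 2 copies may be read together. Trim25, the ligase that activates RIG-I, read 8.69, 8.74 and 8.74 against 9.17, 8.85 and 8.64, a difference of 0.17 ± 0.14 that was 0.02 without VDR-null replicate 1. For Trim21, an intracellular antibody receptor, the values were 7.73, 7.68 and 7.40 against 7.65, 7.69 and 7.78, and the difference of 0.10 ± 0.11 was -0.00031 without wild-type replicate 3. Trim30a was dim, between 4.74 and 5.26. Trim12c and Trim30a each hold 1 response element core, at chr7:104353354-104353393 and chr7:104465205-104465244 on the minus strand.
Trim12c: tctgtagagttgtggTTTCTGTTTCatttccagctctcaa
Trim30a: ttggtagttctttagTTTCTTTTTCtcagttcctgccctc

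Of 6 other effectors tested, 4 were higher, with a median difference of 0.17 that was -0.07 without VDR-null replicate 1. Ifi35, a partner of Nmi, read 9.11, 9.29 and 9.12 in the wild-type mice and 9.75, 9.43 and 9.33 in the VDR-null mice. All VDR-null mice lay above all wild-type mice by a narrow margin, and the difference was 0.33 ± 0.13 (SE; limma adjusted p = 0.683), or 0.21 without VDR-null replicate 1. Rtp4, an interferon-induced chaperone, read 7.38, 6.97 and 6.71 against 8.01, 7.13 and 6.73. Its difference was 0.27 ± 0.33, -0.09 without VDR-null replicate 1 and 0.12 without wild-type replicate 3. Cmpk2, a mitochondrial nucleotide kinase, read 7.47, 7.36 and 7.02 against 7.99, 7.40 and 7.27 and differed by 0.27 ± 0.21, by 0.05 without VDR-null replicate 1 and by 0.13 without wild-type replicate 3. Rsad2, the antiviral enzyme viperin, lies next to Cmpk2 and read 5.85, 5.53 and 5.60 against 6.10, 5.66 and 5.45, a difference of 0.08 ± 0.18 that was -0.11 without VDR-null replicate 1. Xaf1 read 7.21, 6.95 and 7.00 against 7.40, 6.94 and 6.55, a difference of -0.09 ± 0.21 and 0.12 without VDR-null replicate 3. Bst2, the virion-holding protein tetherin, had the same level on all arrays within 0.15 log2 units, from 6.01 to 6.15, and differed by -0.05 ± 0.08. Ifi44 had no probe set named in the annotation. The Bst2 window, chr8:71537572-71537623 on the minus strand, carries sites of both routes, and that of Rsad2, chr12:26456548-26456587 on the minus strand, carries a single core.
Bst2: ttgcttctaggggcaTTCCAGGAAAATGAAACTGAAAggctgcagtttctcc
Rsad2: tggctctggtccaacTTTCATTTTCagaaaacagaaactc

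The T cell chemokine Cxcl9, a hallmark of interferon gamma, was lowest on wild-type replicate 3, as all 4 tested immunity-related GTPases were. It read 9.26, 9.17 and 8.03 in the wild-type mice and 8.46, 9.26 and 9.07 in the VDR-null mice, with wild-type replicate 3 the lowest and VDR-null replicate 1 the next lowest. The difference was 0.11 ± 0.36 (SE; interval -0.75 to 0.97), -0.28 without wild-type replicate 3 and -0.05 without VDR-null replicate 2. Its neighbour Cxcl10, which binds the same receptor, read 5.98, 6.00 and 5.85 against 5.98, 6.23 and 5.95, a difference of 0.11 ± 0.11 and 0.03 without VDR-null replicate 2. Socs1, the feedback inhibitor of Janus kinases, read 5.93, 6.11 and 6.00 against 6.08, 6.20 and 5.92 and differed by 0.05 ± 0.11. The difference of Socs1 was 0.01 with wild-type replicate 1 omitted and -0.01 with VDR-null replicate 2 omitted. Cxcl10 and Socs1 are shown as the members of this class with a match, at chr5:92349078-92349117 and chr16:10785589-10785634 on the minus strand, and both hold response element cores only.
Cxcl10: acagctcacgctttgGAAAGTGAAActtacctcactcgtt
Socs1: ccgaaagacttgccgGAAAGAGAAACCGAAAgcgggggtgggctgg

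Markers of other cells moved with both mice, in different lists. The T and natural killer cell markers, 11 of 13 of them tested, had mean log2 levels of 6.20 to 7.46 on the wild-type and 6.78 to 7.91 on the VDR-null arrays, with VDR-null replicate 1 highest and wild-type replicate 1 lowest, and the natural killer receptor Ncr1 was dim on all arrays. The absorptive enterocyte markers, 10 of 10 tested, were also highest on VDR-null replicate 1, by 0.86 above the mean of the 6 arrays, and lowest on wild-type replicate 1, by -1.53. In the Oas and Ifit families VDR-null replicate 1 lay at 0.59 and wild-type replicate 1 at 0.12. The macrophage and dendritic cell markers, 8 of 9 tested and Xcr1 dim, lay at -0.36 on wild-type replicate 3 and -0.18 on VDR-null replicate 1, and at 0.23 on VDR-null replicate 2. The guanylate-binding proteins lay at -0.48, -0.27 and 0.29 on these 3 arrays and the immunity-related GTPases at -0.55, -0.06 and 0.30. With the mean of the enterocyte markers as a covariate the median difference of the members was 0.23, against 0.010 over all tested genes. With the mean of the T and natural killer markers it was 0.13, against 0.0085. Both marker means were lowest on wild-type replicate 1, and without that mouse and with no covariate the members' median was 0.28. With 6 arrays, a covariate that rests so much on 1 mouse cannot separate cell content from that mouse. The B and plasma cell markers, 4 of 6 tested and Ms4a1 dim, had mean levels of 8.09 to 9.09 on the wild-type and 8.11 to 9.25 on the VDR-null arrays, and lay at -0.61, -0.59 and 0.54 on the same 3 arrays. By genotype, all 11 tested T and natural killer markers and all 10 enterocyte markers were higher in VDR-null duodenum, with median differences of 0.55 and 0.71. Of these, 0 and 1 were higher without overlap, against 4.87% of all tested genes. All 5 smooth muscle markers were lower in VDR-null duodenum, as were all 5 endothelial and all 5 tested crypt markers. The median differences of these 3 lists were -0.40, -0.37 and -0.36. In these lists 3, 2 and 1 markers were lower without overlap, against 6.22% of all tested genes. The 2 tested pancreatic acinar markers lay at 2.59 on VDR-null replicate 3, the highest array for both. The part of these other cells in the members' levels was not tested.

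**Figure D5:**
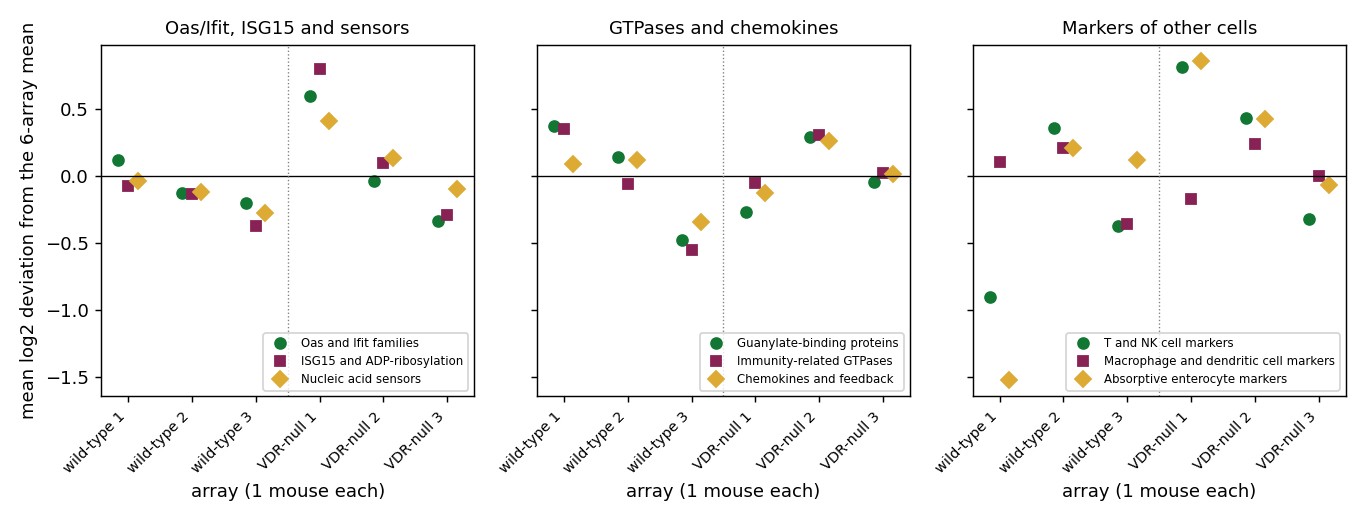
Each symbol is the mean log2 deviation from the 6-array mean of a class of members (left and middle panels) or of a marker list (right panel) on 1 array, with the dotted line between the genotypes. VDR-null 1 is high in the left panel, and wild-type 3 is low in the middle panel, at -0.48 and -0.55 for both GTPase classes.

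The rest of the pathway was read from lists chosen by function. Of 9 interferon genes 4 were tested, 1 higher and 3 lower. Ifnl3 and Ifnl2, the type III interferons, differed by -0.25 ± 0.12 (SE) and -0.20 ± 0.16, and Ifnl2 by -0.05 without wild-type replicate 3, while Ifnb1 and Ifng were dim on all 6 arrays. Among receptors and signalling genes 10 of 15 were higher, with none at an unadjusted p under 0.05. Jak2, a kinase of the interferon gamma receptor, differed by 0.47 ± 0.21, or 0.24 without VDR-null replicate 1, and Il10rb, the shared chain of the type III receptor, by 0.34 ± 0.18. Ifnlr1, the chain particular to the type III receptor and picked after its values were seen, read 5.53, 5.84 and 5.98 in the wild-type mice and 7.18, 6.31 and 5.77 in the VDR-null mice, again highest in VDR-null replicate 1.

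Among genes that induce interferon 7 of 11 were higher. They include Ticam1, the adaptor of Tlr3, at 0.51 ± 0.22 (SE), and the kinase Tbk1 at 0.44 ± 0.20 (8.04, 8.25 and 8.07 against 9.01, 8.39 and 8.28). Tbk1 was the 1 gene of the 11 whose arrays did not overlap, by a narrow margin, where 4.87% of all tested genes were higher without overlap. Without VDR-null replicate 1 the difference was 0.22 for Tbk1 and 0.32 for Ticam1, and that of Ticam1 was 0.31 without wild-type replicate 1. In a further list of interferon-induced genes, 29 of 46 were higher, with a median difference of 0.13, or 0.02 without wild-type replicate 3 (24 higher). At an unadjusted p under 0.05 there were 3 higher and 0 lower, where 2.2% and 3.03% of all tested genes were. These were the chemokine Cxcl11 at 0.62 ± 0.21 (0.40 without VDR-null replicate 1), the RNA helicase Mov10 at 0.81 ± 0.29, and Slfn1 at 0.24 ± 0.09, with a limma adjusted p of 0.683 each. VDR-null replicate 1 was the highest array in 17 of the 46, against 24.4% of all tested genes, and the lowest in 10, against 33.5%. Wild-type replicate 3 was the lowest in 20, against 13.8%. Ifit1bl1, a close relative of Ifit1 picked after its values were seen, read 6.81, 7.46 and 6.86 in the wild-type mice and 9.23, 7.71 and 7.29 in the VDR-null mice.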

How the data were processed

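Per the submitters' processing notes, the authors made the deposited log2 signals, 1 per probe set and array, with RMA in Affymetrix Expression Console. Its version, and whether all 6 arrays went through RMA jointly, were not given in the sources used here. Background correction and quantile normalization in RMA compress low signals. Base 2 follows from RMA and the range of 1.99 to 13.8.

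Of 41345 probe sets, 23521 had 1 symbol in the platform annotation, 1814 several and 16010 none. A gene took its probe set with the highest mean, and entered the test if 3 or more arrays exceeded the median of all values, 5.17. VDR-null was compared with wild-type in limma 3.58.1 (R 4.3.3) by lmFit and eBayes without covariates; two-sided p-values were adjusted by Benjamini-Hochberg over all 13174 genes, with a threshold of 0.05. No label ties the arrays to separate litters or days, so p-values measure the spread between these samples, and the number of arrays limits the precision. The procedure was tested on simulated data with noise drawn independently for each gene, which leaves out deviations that genes share on an array. Differences are VDR-null minus wild-type, and values in pairs of triplets are replicates 1 to 3. All listed members are named, with Vdr and the 2 tested members of each pathway list with the smallest p. Members, classes, lists and alternatives were chosen with earlier results of these data known. Alternatives covered the filter, normalization, spread model, array weights, replicate number, probe sets, 2 covariates and left-out arrays. Promoters are from RefSeq.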

Additional observations from a re-analysis of the deposited data

How the results depend on the processing

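No member passed an adjusted p of 0.05 in limma under any of the 20 alternatives, with the lowest at 0.191 under array weights, and 14 of 39 members kept their sign in each. Depth cannot be read from arrays; dim signals limit Isg15, Trim30a, Gbp6 and Trim12c.

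The number of members at an unadjusted p under 0.05 was 5 (5.23% of all tested genes), but 3 with the filter at the upper quartile (4.8%), quantile normalization (4.91%), cyclic loess (4.9%) or the replicate block (2.57%), 11 with array weights (20.6%), 2 with the enterocyte covariate (2.8%) and 1 with the T cell covariate (2.82%). It was 1 to 12 without single mice, the 12 without VDR-null replicate 3 (11.9%), 1 without both replicate 1 arrays (2.82%) and 2 without wild-type replicate 3 and VDR-null replicate 1 (1.56%). Members without overlap numbered 5 (11.1% of all tested genes), but 3 with the upper-quartile filter (10.6%). With fewer arrays, where overlap is easier to miss, they numbered 5 (18.2%) to 16 (34%) without single mice, 12 (29%) without both replicate 1 arrays and 8 (25.9%) without wild-type replicate 3 and VDR-null replicate 1.

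Arrays with the same number in their titles did not deviate together (correlations of -0.62, 0.19 and -0.26). No label pairs the arrays, and with 3 arrays per genotype these correlations cannot decide whether the replicate block stands for a pairing. The sample descriptions number the wild-type arrays differently from the titles, and arrays that share a number there had correlations of -0.62 and -0.60.

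Array weights gave class medians of 0.39 for guanylate-binding proteins and 0.27 for chemokines and feedback. Signs turned for Gbp3 (0.21), Irf8 (-0.0041) and Oas1g (0.080) with array weights, Bst2 (0.0072) with cyclic loess, Gbp3 (0.14), Oas1g (0.23) and Socs1 (-0.025) with the enterocyte covariate, and Oas1g (0.012) and Socs1 (-0.044) with the T cell covariate. Without both replicate 1 arrays they turned for Gbp3 (0.16), Oas1g (0.20), Ifih1 (-0.0063), Ifit1 (-0.028), Oas3 (-0.11), Oasl1 (-0.029) and Rsad2 (-0.011).

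The ranges that follow cover each mouse left out singly and the pair of wild-type replicate 3 and VDR-null replicate 1, a pair chosen after seeing the data. The number of members higher ran from 18 (the pair) to 35, and the median from -0.22 to 0.49 for the Oas and Ifit families and from -0.015 to 0.15 for chemokines and feedback. Members whose sign turned ran from -0.27 to 0.11 (Gbp3), -0.25 to 0.24 (Gbp7), -0.090 to 0.28 (Irgm1), -0.0026 to 0.39 (Irgm2), -0.32 to 0.28 (Iigp1), -0.062 to 1.09 (Ifit1), -0.026 to 0.28 (Ifit2), -0.51 to 0.18 (Oas1g), -0.18 to 0.71 (Oas3), -0.38 to 0.71 (Oasl2), -0.053 to 0.28 (Dhx58), -0.027 to 0.20 (Eif2ak2), -0.047 to 0.18 (Irf8), -0.068 to 0.28 (Stat2), -0.060 to 0.93 (Usp18), -0.00031 to 0.17 (Trim21), -0.13 to 0.22 (Rsad2), -0.084 to 0.41 (Cmpk2), -0.24 to 0.55 (Rtp4), -0.33 to 0.12 (Xaf1), -0.28 to 0.35 (Cxcl9) and -0.015 to 0.12 (Socs1). Apart from the arrays left out, the cause was not tested. Overlap was recounted only for other filters and left-out arrays.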
